A study of Mus musculus with 9 samples.

Results

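Piezo and TRP channels are the ion channels through which skin cells and their nerves register force, temperature and chemical stimuli, and 10 of their genes were followed across sorted mouse keratinocytes: Piezo1, Piezo2, Trpv1, Trpv2, Trpv3, Trpv4, Trpv6, Trpc1, Trpm4 and Trpm7. They were chosen by name, as the mechanosensitive Piezo genes and the TRP genes of keratinocytes, and each was found by its Ensembl identifier, so that 10 of the 55357 gene identifiers in the table are described. Poly(A) RNA was sequenced from 9 libraries of cells sorted from back skin of mice on a C57BL/6 background at postnatal day 60. All the mice had the genotype TNC-CREER; tdTomato, and all were given tamoxifen at 100 µg per g body weight on postnatal days 51 and 52. Touchdome cells were sorted as positive for EPCAM (found on epithelia), integrin α6 (found on basal cells), SCA1 and the tdTomato reporter. HF (hair follicle) cells carried EPCAM and integrin α6 without SCA1 and without the reporter. IFE (interfollicular epidermis) cells carried EPCAM, integrin α6 and SCA1 without the reporter. Since the Cre recombinase follows Tnc, the Tenascin-C gene, the Touchdome group holds SCA1-positive cells in which Tnc was active at the time of the tamoxifen. Each group had 3 libraries, and the labels do not state whether these came from separate animals, so each p-value reflects how far these libraries spread, part of which may be technical.

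PIEZO1 and PIEZO2 are very large membrane proteins that open when the membrane is stretched or indented, and PIEZO2 of Merkel cells and of touch neurons is required for gentle touch. TRP channels are cation channels opened by varied stimuli: in the vanilloid branch, TRPV1 is the capsaicin and heat receptor of pain neurons, TRPV3 and TRPV4 respond to warmth and are known from keratinocytes, and TRPV6 is a channel highly selective for calcium. TRPM4 is opened by intracellular calcium and passes sodium, and TRPM7 joins a magnesium- and calcium-conducting channel to a protein kinase.

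Libraries held 10735431 to 15477297 expected counts in Touchdome, 9295059 to 21358479 in HF and 14647371 to 28249763 in IFE. By library, 0 counts allowed a level of up to 0.114 to 0.316 CPM (counts scaled to the TMM-adjusted library size), for counting error only. Tnc stood at 200.4 to 288 CPM in Touchdome, 40.6 to 56.9 CPM in HF and 1.13 to 7.16 CPM in IFE, and Ly6a, which encodes SCA1, at 104 to 140.5 CPM, 0.4215 to 1.90 CPM and 112 to 179.6 CPM in the same groups. Along principal component 1 (59.2% of variance) Touchdome replicate 3 lay at -2.86, apart from replicates 1 and 2 at -37.6 and -40.7 and nearer to HF at 89.2 to 98.7. IFE replicate 2 stood apart within its group, with a chi-square per degree of freedom of 75.9 and 70.6 against the other IFE libraries, where other pairs within a group gave 16.8 to 27.3. The Merkel cell genes Atoh1 and Sox2, which define the sensory cells of touch domes, had 0 counts in all 9 libraries.

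The TPM values, which are scaled to transcript length and allow levels of different genes to be compared, put Trpm4, Trpm7 and Piezo1 at the top of the 10 genes in Touchdome and IFE, and Trpv4 at the top in HF. In Touchdome, Trpm4 stood at 31.1 ± 12.2 TPM, Trpm7 at 30.7 ± 1.73 TPM and Piezo1 at 23.2 ± 2.37 TPM (SD, n = 3 for each value here). Below them came Trpv6 at 12.5 ± 0.950 TPM, Trpv3 at 9.79 ± 1.54 TPM and Trpv4 at 9.48 ± 5.54 TPM. In HF, Trpv4 led with 79.4 ± 8.81 TPM, before Trpm4 at 56.9 ± 6.14 TPM, Piezo1 at 40.2 ± 15.9 TPM and Trpm7 at 32.4 ± 3.002 TPM, with Trpv3 at 9.003 ± 0.541 TPM and Trpv6 at 6.97 ± 0.555 TPM. In IFE, the order was Trpm4 at 26.8 ± 4.60 TPM, Trpm7 at 23.6 ± 6.45 TPM, Piezo1 at 21.7 ± 8.41 TPM, Trpv6 at 11.4 ± 0.645 TPM, Trpv3 at 9.23 ± 2.49 TPM and Trpv4 at 4.08 ± 1.04 TPM. Neighbours in these orders whose means ± SD overlapped were Trpm4 with Trpm7 and Trpv3 with Trpv4 in Touchdome, Trpm4 with Piezo1 and Piezo1 with Trpm7 in HF, and Trpm4 with Trpm7, Trpm7 with Piezo1 and Trpv6 with Trpv3 in IFE.

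The lowest levels were those of Trpc1, Trpv2, Piezo2 and Trpv1. Trpc1 stood at 2.07 ± 0.890 TPM in Touchdome, 2.46 ± 0.854 TPM in HF and 2.45 ± 0.973 TPM in IFE. Trpv2 stood at 1.21 ± 1.32, 1.51 ± 1.23 and 0.500 ± 0.144 TPM in Touchdome, HF and IFE. Piezo2 was listed at 0.08 to 0.60 TPM in Touchdome libraries, 0.78 to 1.84 TPM in HF libraries and 0 TPM in the 3 IFE libraries. Trpc1 and Trpv2 overlapped in mean ± SD in Touchdome and HF but not in IFE. Against the 15046 genes tested, mean TPM of Trpv4 was above that of 38.8% of genes in Touchdome, 87.1% in HF and 29.0% in IFE, while Trpm7 was above 66.2%, 66.8% and 61.8%.

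Summed over the 10 genes, TPM came to 121 ± 19.9 in Touchdome, 230.4 ± 21.7 in HF and 99.8 ± 19.6 in IFE. Trpv4 took 4.23% to 10.9% of that sum in Touchdome libraries, 33.8% to 35.6% in HF libraries and 2.55% to 5.17% in IFE libraries. Trpm7 took 23.0% to 30.4%, 13.7% to 14.3% and 20.8% to 24.8% in the same groups.

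**Figure D1:**
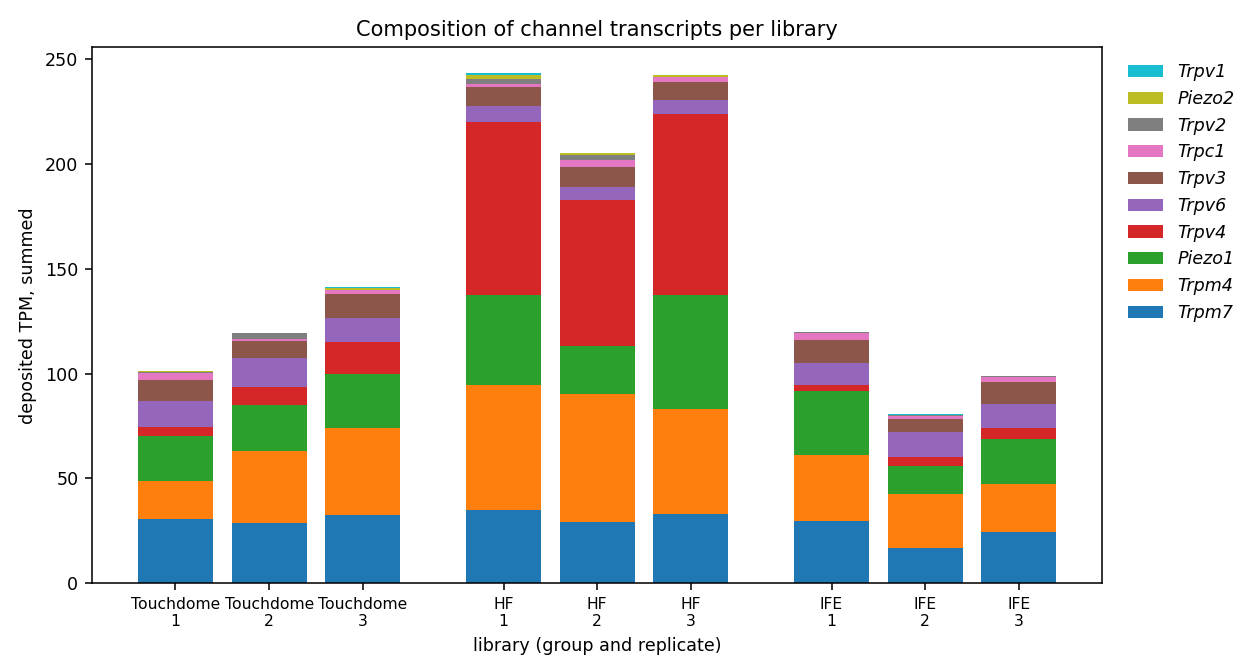
Deposited TPM of the 10 channel genes, stacked for each library (x axis, Touchdome, HF and IFE replicates; y axis, summed TPM; one colour per gene). HF bars reach 205 to 244 TPM, and the Trpv4 segment makes up 33.8% to 35.6% of each of them.

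Of the 10 genes, 9 had counts high enough to be tested, and Trpv1 did not. Comparing Touchdome with HF, 1 gene was higher (Trpv6) and 3 were lower (Piezo1, Trpv4 and Trpm4) at an adjusted p under 0.05 in edgeR's quasi-likelihood test, where 11.8% of all tested genes were higher and 12.8% lower. Comparing HF with IFE, 3 genes were higher (Piezo2, Trpv4 and Trpm4) and 1 was lower (Trpv6), where 17.1% of all tested genes were higher and 16.0% lower. Piezo2 was kept among the tested genes through its HF libraries. Comparing Touchdome with IFE, 0 genes were higher and 0 lower, where 1.22% of all tested genes (184 genes) were higher and 0.0798% (12 genes) lower. With the replicate number as a block, 282 and 67 of all genes were called in that last comparison, and still none of the 10. At an unadjusted p under 0.05, Piezo2 and Trpv4 passed between Touchdome and IFE, and the same 2 were called higher by DESeq2. The median log2 fold change of the 9 tested genes was 0.11 for Touchdome over IFE, -0.03 for Touchdome over HF and 0.81 for HF over IFE, beside medians of 0.0048, -0.0038 and 0.0042 over all tested genes. By libraries that do not overlap, 1 gene (Piezo2) was above IFE in every Touchdome library and 0 were below, beside 8.32% and 6.27% of all tested genes. For Piezo2 this rested on 2 and 3 counts in Touchdome replicates 2 and 3 against 0 counts in IFE. In IFE replicate 2, 0 counts allowed up to 0.211 CPM, above the 0.179 CPM of Touchdome replicate 2. Between Touchdome and HF, 1 gene (Trpv6) had every Touchdome library above and 4 (Piezo1, Piezo2, Trpv4 and Trpm4) had every one below, beside 21.2% and 22.2%. Between HF and IFE, 3 genes (Piezo2, Trpv4 and Trpm4) had every HF library above and 1 (Trpv6) every one below, beside 24.6% and 23.1%. In RNA from sorted pools, fewer cells that express a gene and less of its RNA per cell cannot be told apart, here or for any value below.

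**Figure D2:**
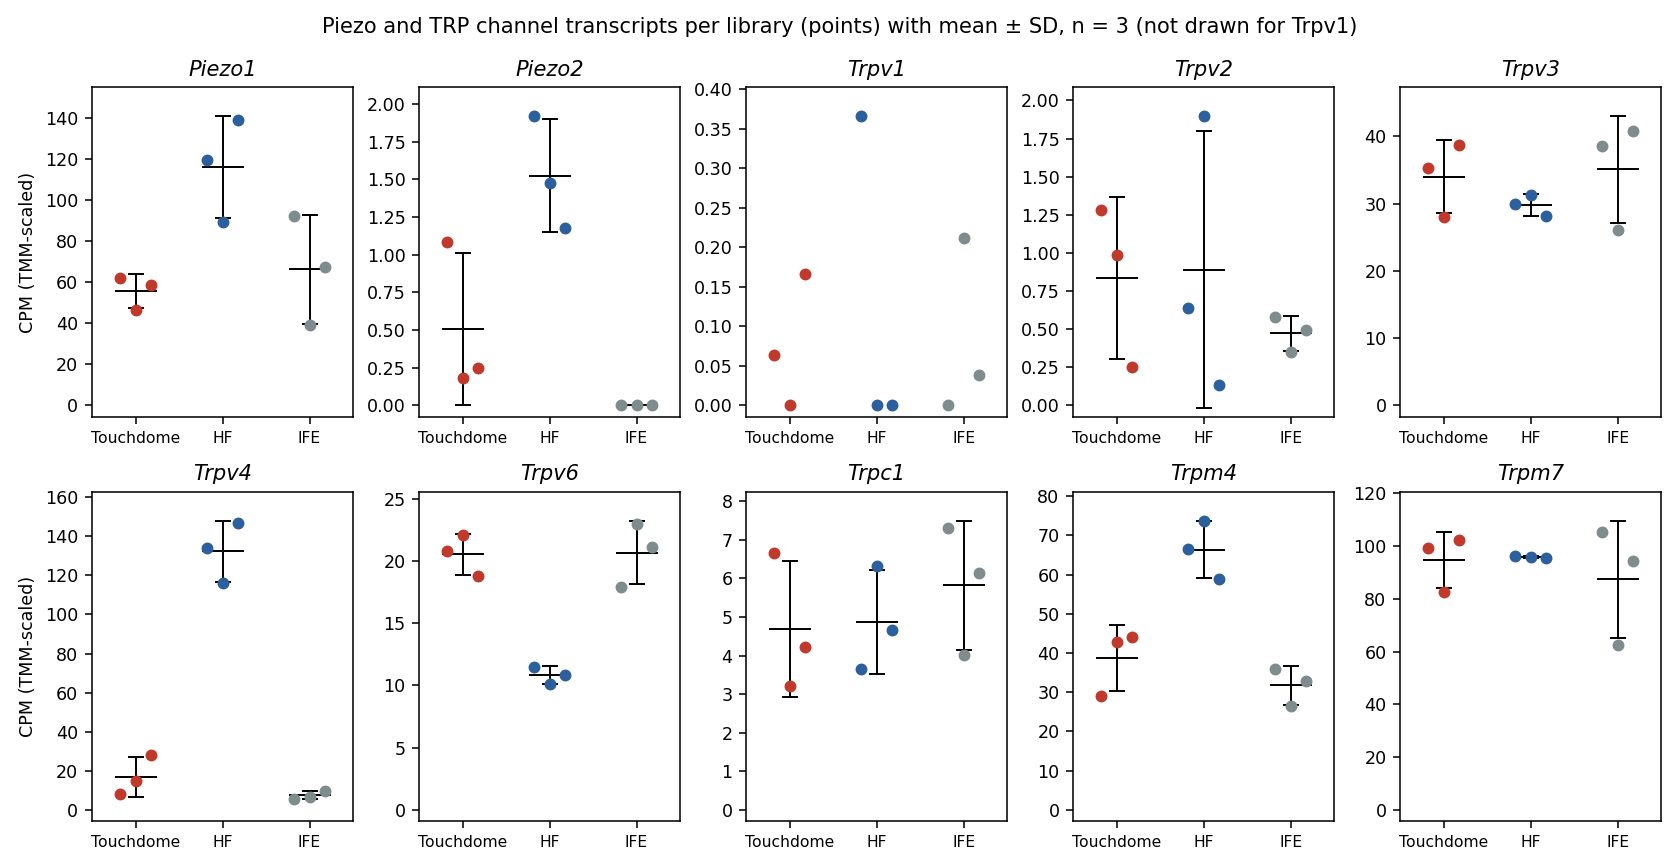
Level of each channel gene in each library (points, CPM scaled by TMM) in Touchdome, HF and IFE. The y axis starts slightly below 0 and is scaled per gene. Mean ± SD over 3 libraries is drawn for all genes but Trpv1. Trpv4 points lie at 116 to 147 CPM in HF and below 30 CPM in both other groups, and Trpv6 shows the opposite arrangement with HF lowest.

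Trpv4 (ENSMUSG00000014158), a calcium-permeable channel opened by warmth, cell swelling and lipid messengers, was higher in HF than in both other groups. Its Touchdome libraries had 7.99, 14.6 and 28.2 CPM (replicates 1, 2 and 3), with 133.8, 116 and 147 CPM in HF, and 5.79, 6.82 and 9.84 CPM in IFE. All HF libraries were far above the rest, and Touchdome replicate 1 lay within the range of IFE while replicates 2 and 3 lay above it. In HF it was 17.5-fold higher than in IFE (log2 4.13 ± 0.44, SE, adjusted p = 0.000156, edgeR), a difference exceeded in size by 3.37% of tested genes. Touchdome was lower than HF by a log2 fold change of -2.98 ± 0.42 (adjusted p = 0.00109), and by -3.57 without Touchdome replicate 3.

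Between Touchdome and IFE the Trpv4 difference depended on single libraries. Its log2 fold change was 1.15 ± 0.42 with a 95% interval of 0.19 to 2.11 and did not pass (adjusted p = 0.361, unadjusted p = 0.0245). Without Touchdome replicate 1 it was 1.504 (adjusted p = 0.0370), without Touchdome replicate 3 it was 0.56 (adjusted p = 0.742), and DESeq2 on all libraries gave 1.17 (adjusted p = 0.0215). Over all alternatives the adjusted p ranged from 0.0215 to 0.742.

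Touchdome replicate 3, the highest Touchdome library for Trpv4, was also the highest of its group for Cd34, Lgr5, Sox9, Lhx2, Nfatc1 and, by a small margin, Tcf7l2, markers of the hair follicle bulge and germ, but not for Krt15 of the same list. Of the 7 genes of that list, Touchdome over IFE gave 2 higher and 0 lower. Touchdome over HF gave 0 higher and 7 lower, and HF over IFE 6 higher and 0 lower. The shares of all tested genes were 1.22% and 0.0798%, 11.8% and 12.8%, and 17.1% and 16.0% in those comparisons. The summed level of the 7 genes was 5909 to 6822 CPM in Touchdome, 10970 to 11820 CPM in HF and 7346 to 10300 CPM in IFE. Most of it was Krt15, and none of the 7 was at 0 in any group. As a percentage of the HF mean, Trpv4 stood at 6.04%, 11.01% and 21.3% in Touchdome replicates 1, 2 and 3 and at 5.66% on average in IFE. Cd34, a bulge surface marker, stood at 2.52%, 2.97% and 12.4% in the same Touchdome libraries and at 0.238% on average in IFE. The part of follicle cells in the Touchdome level of Trpv4 was not tested.

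**Figure D3:**
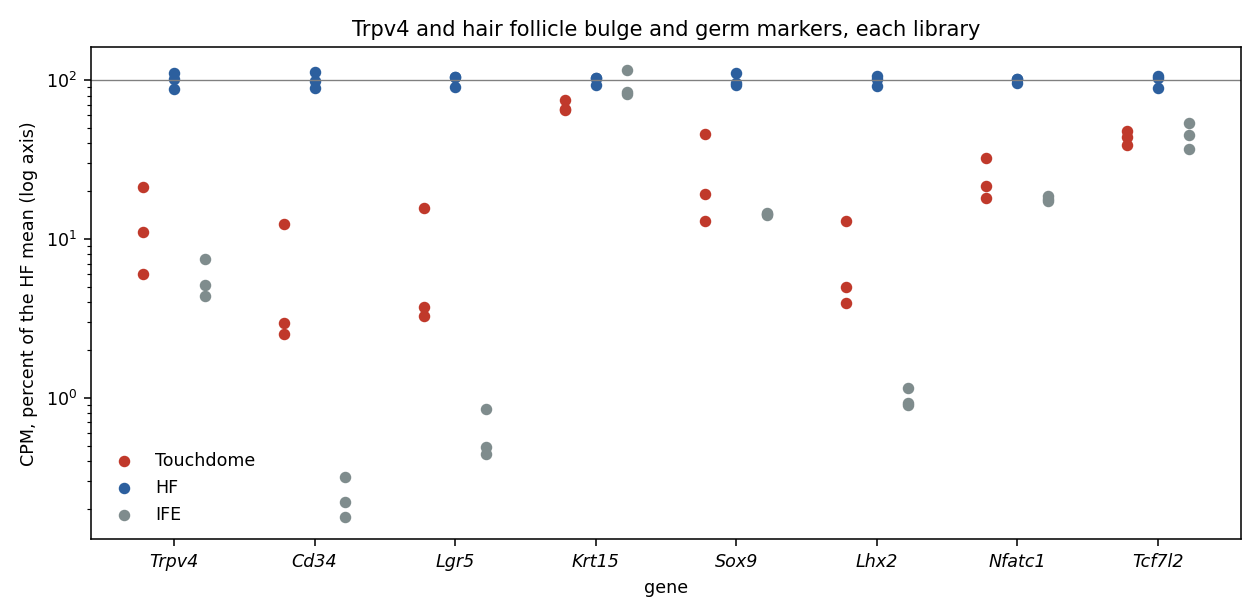
Trpv4 beside 7 markers of the hair follicle bulge and germ, each library as a percentage of the gene's mean CPM in HF (log axis; red Touchdome, blue HF, grey IFE; the line marks 100%). Trpv4 lies at 6.04% to 21.3% in Touchdome, and Cd34 at 2.52% to 12.4% in Touchdome against 0.238% on average in IFE.

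Promoters are shown for Trpv4, Trpv6 and Piezo1, the called genes with an entry in the part of the RefSeq promoter table that was used (8 of the 10 genes had one). The chromosome of Piezo2, which was also called, was left out of that part. The promoters set Trpv4 and Piezo1, which were higher in HF than in Touchdome, beside Trpv6, which was lower in HF than in both other groups. The 250 bases before each transcription start are given from 5′ to 3′ on the gene's own strand in RefSeq build GRCm38.p6, which differs from the mm39 build of the counts. They lie on the minus strand at chr5:114658422-114658671 for Trpv4, chr6:41636406-41636655 for Trpv6 and chr8:122551330-122551579 for Piezo1. Capitals mark matches to any of the 9 short motifs searched.
Trpv4: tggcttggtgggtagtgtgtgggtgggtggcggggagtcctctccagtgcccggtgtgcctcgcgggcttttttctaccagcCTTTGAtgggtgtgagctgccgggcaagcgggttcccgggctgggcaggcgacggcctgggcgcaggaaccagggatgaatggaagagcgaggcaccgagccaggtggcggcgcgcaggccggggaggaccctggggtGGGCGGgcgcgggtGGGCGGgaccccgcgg
Trpv6: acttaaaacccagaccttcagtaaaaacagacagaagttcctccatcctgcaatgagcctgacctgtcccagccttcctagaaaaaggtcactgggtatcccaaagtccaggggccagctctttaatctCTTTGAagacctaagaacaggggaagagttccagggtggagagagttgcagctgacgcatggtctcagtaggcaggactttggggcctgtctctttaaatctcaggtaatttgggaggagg
Piezo1: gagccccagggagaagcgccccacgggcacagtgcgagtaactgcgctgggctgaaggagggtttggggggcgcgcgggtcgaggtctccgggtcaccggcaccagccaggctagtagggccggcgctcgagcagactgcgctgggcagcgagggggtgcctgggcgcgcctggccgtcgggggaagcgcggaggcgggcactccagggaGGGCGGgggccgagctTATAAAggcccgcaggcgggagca
The motifs were searched on both strands and are given with the share of all 32851 promoters of that length in the table that hold them. Among core promoter elements, TATAAA was in 12.4% of promoters, the GC box GGGCGG in 32.7% and the element CCAAT in 33.9%. Among motifs of epithelial and follicle factors, AP-1 was searched as TGANTCA (6.75%), Tcf/Lef factors as CTTTGA (13.8%), Gli factors as GGGTGGTC (0.703%), LIM homeodomain factors as TAATTA (4.84%), TEAD factors as GGAATG (12.6%) and AP-2 as GCCNNNGGC (13.7%). The Trpv4 window held 2 GC boxes beginning 30 and 16 bases before the start and a CTTTGA match at 168 bases, with 72.0% GC, above the GC content of 93.1% of promoters. The Trpv6 window held 1 CTTTGA match at 121 bases, 1 CG dinucleotide and 49.6% GC, near the median of 52.4%. The Piezo1 window held a TATAAA match at 24 bases and a GC box at 40 bases, with 26 CG dinucleotides and 74.0% GC. No matches overlapped in these 3 windows, and a match only describes the letters.

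Trpv6 (ENSMUSG00000029868), the calcium-selective channel known for calcium uptake in gut epithelium, was lower in HF than in both SCA1-positive populations. It stood at 20.8, 22.1 and 18.8 CPM in Touchdome libraries, 11.5, 10.1 and 10.9 CPM in HF libraries, and 17.9, 23.0 and 21.1 CPM in IFE. Every HF library was below every other library, and the Touchdome and IFE libraries overlapped. Touchdome was higher than HF by a log2 fold change of 0.92 ± 0.16 (adjusted p = 0.000993, edgeR), and HF was lower than IFE by -0.93 ± 0.16 (adjusted p = 0.000599). Both calls held in 17 of 17 alternatives. Touchdome over IFE gave -0.01 with a 95% interval of -0.35 to 0.33 (adjusted p = 0.995).

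Trpv3 (ENSMUSG00000043029), the warmth-activated channel found mainly in keratinocytes, passed no test. Its levels were 35.3, 28.1 and 38.8 CPM in Touchdome libraries, 29.9, 31.3 and 28.1 CPM in HF libraries, and 38.5, 26.03 and 40.7 CPM in IFE, and all 3 groups overlapped. The log2 fold change was -0.05 for Touchdome over IFE (95% interval -0.43 to 0.33), 0.19 for Touchdome over HF (-0.19 to 0.58) and -0.24 for HF over IFE (-0.62 to 0.14). Without IFE replicate 2, the lowest IFE library, HF over IFE was -0.42 and passed (adjusted p = 0.0469).

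Within single libraries, the ratios among the 3 epithelial vanilloid channels set HF apart. Trpv4 over Trpv3, as a ratio of TPM, was 0.431, 1.08 and 1.36 in Touchdome, 9.04, 7.33 and 10.2 in HF, and 0.285, 0.643 and 0.482 in IFE. Trpv4 over Trpv6 was 0.346, 0.653 and 1.32 in Touchdome, 10.9, 10.8 and 12.4 in HF, and 0.287, 0.344 and 0.443 in IFE. Trpv6 over Trpv3 was 1.25, 1.66 and 1.04 in Touchdome, 0.826, 0.679 and 0.826 in HF, and 0.993, 1.87 and 1.09 in IFE. Trpv4 thus exceeded both neighbours in all HF libraries and was below both in all IFE libraries, with Touchdome libraries on either side of 1.

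Trpv1 (ENSMUSG00000005952), the heat and capsaicin receptor of nociceptors, was close to the limit of detection. It had 1, 0 and 2 counts in Touchdome, 8, 0 and 0 counts in HF, and 0, 3 and 1 counts in IFE, and a single HF library held all of that group's counts. In a fit without a filter, over 24610 genes, its adjusted p was 1, 0.905 and 0.887 for Touchdome over IFE, Touchdome over HF and HF over IFE. Differences in Trpv1 were not detectable at this depth. Trpv2 (ENSMUSG00000018507), a relative of Trpv1 that is widely expressed outside the nervous system, had 20, 11 and 3 counts in Touchdome, 14, 18 and 2 counts in HF, and 11, 5 and 13 counts in IFE. At 1.28, 0.983 and 0.249 CPM in Touchdome libraries, 0.640, 1.90 and 0.131 CPM in HF libraries, and 0.579, 0.352 and 0.492 CPM in IFE, it spread more within Touchdome and HF than between the groups. None of its comparisons passed, and its 95% interval for Touchdome over HF ran from -2.08 to 2.06 on the log2 scale.

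Piezo1 (ENSMUSG00000014444), the widely expressed force-gated channel of epithelia and vessels, was lower in Touchdome than in HF. It stood at 62.2, 46.5 and 58.7 CPM in Touchdome libraries, 119.8, 89.7 and 139 CPM in HF libraries, and 92.3, 39.3 and 67.7 CPM in IFE. Every Touchdome library was below every HF library, while IFE spread across both ranges. Touchdome was lower than HF by a log2 fold change of -1.06 ± 0.29 (adjusted p = 0.0238, edgeR). That call ended in 7 of 17 alternatives, with adjusted p = 0.0762 without Touchdome replicate 2, 0.0537 without Touchdome replicate 3, 0.0665 without HF replicate 1, 0.0823 without HF replicate 3, 0.101 without the filter on low counts, and 0.168 and 0.179 with limma on log2 TPM. HF over IFE was 0.81 ± 0.28 and did not pass (adjusted p = 0.0552). It passed in 5 of 17 alternatives, among them without HF replicate 2 (adjusted p = 0.0408) and without IFE replicate 1 (adjusted p = 0.00995). Touchdome over IFE was -0.25, with a 95% interval of -0.89 to 0.39 (adjusted p = 0.863).

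Piezo1 was the only 1 of the 10 genes with fractional expected counts, which it had in all 9 libraries, so part of its reads was divided among genes. It overlaps Ctu2 on the opposite strand, and the strand setting of the counting is not given in the sources used here. Ctu2 averaged 20.8 CPM in Touchdome, 23.3 CPM in HF and 24.2 CPM in IFE and passed no test.

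Piezo2 (ENSMUSG00000041482), the touch channel of Merkel cells and sensory neurons, was found at low counts in Touchdome and HF and at none in IFE. Its counts were 17, 2 and 3 in Touchdome, 42, 14 and 18 in HF, and 0, 0 and 0 in IFE. These correspond to 1.09, 0.179 and 0.249 CPM in Touchdome libraries, with 1.92, 1.48 and 1.18 CPM in HF libraries, while 0 counts in the 3 IFE libraries together allowed up to 0.0503 CPM. The HF libraries were above all others, and Touchdome replicate 1 held 17 of the 22 Touchdome counts. Measured against that limit of 3 counts over the group, Piezo2 was at least 31.6-fold higher in HF than in IFE (adjusted p = 0.00157, edgeR). The filter on low counts kept Piezo2 through its HF libraries, the group in which it was highest, so this call is not independent of the filter. By the same limit the pooled Touchdome counts, most of them from replicate 1, gave at least 11.3-fold over IFE. That bound leaves out the spread between libraries, and the difference between Touchdome and IFE did not pass (adjusted p = 0.0853, edgeR). It passed with DESeq2 (adjusted p = 0.00666) and without the filter on low counts (adjusted p = 0.0251). The ratio of counts of Touchdome over HF was 0.357 with a 95% counting interval of 0.211 to 0.581, which leaves out the spread between libraries, and the test gave -1.54 ± 0.85 on the log2 scale (adjusted p = 0.236).

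Some genes of the Merkel cell, neuron and fibroblast lists were present at low levels in the libraries with Piezo2 counts. The Merkel cell list summed to 1.33 to 9.53 CPM in Touchdome, 1.90 to 2.82 CPM in HF and 0.114 to 0.316 CPM in IFE, and of its 6 genes 3, 4 and 3 were at 0 in those groups. Atoh1, Sox2 and Isl1 were at 0 counts in every Touchdome and HF library, and most of the sum there was Krt8. Krt18 had 31, 3 and 4 counts in Touchdome, 0, 2 and 4 in HF, and 3, 2 and 1 in IFE. Krt20 had 6, 3 and 0 counts in Touchdome and 0 in every HF and IFE library. The only tested gene of the list, Krt8, stood at 7.16, 0.805 and 0.996 CPM in Touchdome. Krt8 was higher in both Touchdome and HF than in IFE (adjusted p = 0.0225 and 0.003004, edgeR). Touchdome replicate 1 was the highest of its group for Krt8, Krt18 and Krt20, as for Piezo2. The sensory neuron list of 8 genes summed to 3.45 to 9.80 CPM in Touchdome, 4.13 to 6.64 CPM in HF and 1.55 to 3.33 CPM in IFE, with 2 of its genes tested, none called, and Scn9a and Nefl at 0 in all libraries. The fibroblast list of 6 genes summed to 45.3 to 90.3 CPM in Touchdome, 62.2 to 87.1 CPM in HF and 0.844 to 2.95 CPM in IFE. Of the 5 tested genes of the fibroblast list, 2 were higher in Touchdome and 3 in HF than in IFE, and 0 were lower. The shares of all tested genes were 1.22% higher and 0.0798% lower for Touchdome over IFE. For HF over IFE they were 17.1% and 16.0%. The part of these cells in the Piezo2 counts was not tested.

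Trpm4 (ENSMUSG00000038260), the calcium-activated channel that passes sodium and depolarizes the cell, was higher in HF than in both other groups. It stood at 29.0, 42.8 and 44.2 CPM in Touchdome libraries, 66.5, 73.7 and 59.0 CPM in HF libraries, and 35.9, 26.4 and 32.9 CPM in IFE. HF libraries lay above all others, and Touchdome and IFE overlapped. Touchdome was lower than HF by a log2 fold change of -0.78 ± 0.18 (adjusted p = 0.00538, edgeR), and HF was higher than IFE by 1.06 ± 0.18 (adjusted p = 0.000457). Both calls held in 17 of 17 alternatives. Touchdome over IFE was 0.28 with a 95% interval of -0.10 to 0.66 (adjusted p = 0.662). The pseudogene Rpl14-ps1 overlaps Trpm4 on the opposite strand and averaged 16.9 CPM in Touchdome, 14.4 CPM in HF and 16.0 CPM in IFE, with no call.

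Trpm7 (ENSMUSG00000027365), the channel fused to a kinase that handles magnesium and calcium in most cell types, passed no test. It stood at 99.2, 82.4 and 102 CPM in Touchdome libraries, 96.2, 96.0 and 95.5 CPM in HF libraries, and 105, 62.5 and 94.3 CPM in IFE, with IFE replicate 2 the lowest library. Its log2 fold changes were 0.11 for Touchdome over IFE, -0.02 for Touchdome over HF and 0.13 for HF over IFE, with 95% intervals of -0.24 to 0.47, -0.38 to 0.34 and -0.22 to 0.49. Trpc1 (ENSMUSG00000032839), a subunit of canonical TRP channels, stood at 6.65, 3.22 and 4.23 CPM in Touchdome libraries, 3.66, 6.32 and 4.65 CPM in HF libraries, and 7.31, 4.01 and 6.13 CPM in IFE. The groups overlapped, none of its comparisons passed, and its intervals were wider, from -1.08 to 0.47 for Touchdome over IFE and from -0.82 to 0.76 for Touchdome over HF.

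**Figure D4:**
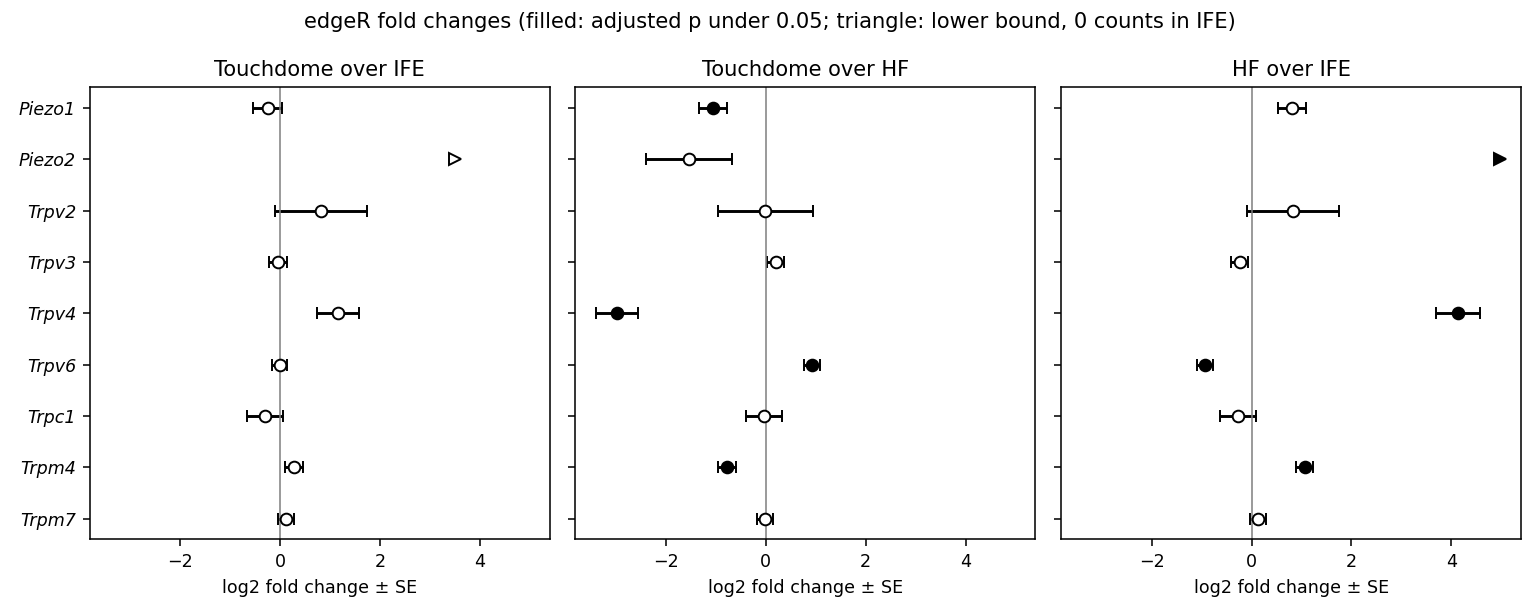
Log2 fold change ± SE from edgeR of the 9 tested channel genes (rows) for Touchdome over IFE, Touchdome over HF and HF over IFE; filled symbols passed an adjusted p under 0.05, and triangles are lower bounds for Piezo2 against 0 counts in IFE. No symbol is filled for Touchdome over IFE, while Trpv4 reaches -2.98 for Touchdome over HF and 4.13 for HF over IFE.

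Of 20 further TRP genes, 8 were tested, and Trpa1, Trpv5, Trpc7 and Trpm8 had 0 counts in all 9 libraries. For Touchdome over IFE, 0 of the 8 were higher and 0 lower, for Touchdome over HF 2 were higher and 2 lower, and for HF over IFE 3 were higher and 1 lower. The shares of all tested genes called higher and lower were 1.22% and 0.0798% of all tested genes for Touchdome over IFE, 11.8% and 12.8% for Touchdome over HF, and 17.1% and 16.0% for HF over IFE. The median log2 fold change of the 8 genes was 0.12, -0.34 and 0.02 in those comparisons, beside 0.0048, -0.0038 and 0.0042 over all tested genes. Over the 17 alternatives, the counts for HF over IFE ran from 2 to 4 higher and from 1 to 2 lower, and those for Touchdome over HF from 1 to 2 higher and from 2 to 3 lower. Trpm3, a heat-activated channel of sensory neurons, averaged 4.63 ± 1.61 CPM in Touchdome, 25.2 ± 4.84 CPM in HF and 7.01 ± 1.33 CPM in IFE, and was lower in Touchdome than in HF (log2 -2.43 ± 0.27, adjusted p = 3.19e-05, edgeR). Pkd2, the polycystin cation channel of cilia, stood at 62.0 ± 3.86 CPM in Touchdome, 100.8 ± 9.98 CPM in HF and 51.4 ± 7.22 CPM in IFE, with HF higher than IFE by 0.97 ± 0.13 (adjusted p = 8.99e-05). Mcoln1, a lysosomal channel that with Pkd2 had the highest levels of the list, stood at 62.1 CPM in Touchdome, 67.4 CPM in HF and 63.4 CPM in IFE. Mcoln3 of the same family had mean levels of 0.662 CPM in Touchdome, 1.83 CPM in HF and 0.0680 CPM in IFE. These rested on 24, 76 and 5 counts over the libraries of each group. It was called higher for HF over IFE (adjusted p = 0.00390, edgeR). The filter on low counts kept Mcoln3 through its HF libraries, the group in which it was highest, so this call is not independent of the filter. Trpm1, known from melanocytes and retina, was higher in Touchdome (3.44 ± 1.96 CPM) than in HF (0.250 ± 0.221 CPM, adjusted p = 0.00838) and stood at 1.02 ± 0.283 CPM in IFE. The melanocyte list beside it summed to 5.81 to 28.1 CPM in Touchdome, 8.46 to 29.9 CPM in HF and 3.07 to 3.94 CPM in IFE, and its part in Trpm1 was not tested.

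Among 21 other mechanosensitive channels and Piezo partners, 14 were tested. For Touchdome over IFE, 1 was higher and 0 lower, for Touchdome over HF 3 were higher and 4 lower, and for HF over IFE 4 were higher and 2 lower, beside 1.22% and 0.0798%, 11.8% and 12.8%, and 17.1% and 16.0% of all tested genes. Their median log2 fold change was 0.11 for Touchdome over IFE, 0.02 for Touchdome over HF and 0.43 for HF over IFE. With the alternatives, the counts for HF over IFE ran from 4 to 5 higher and from 1 to 3 lower, and for Touchdome over HF 2 to 3 were higher. Kcnk2, which encodes the stretch-activated potassium channel TREK-1, was the gene called between Touchdome and IFE. It stood at 11.3, 18.3 and 26.2 CPM in Touchdome libraries, 112, 119.7 and 92.2 CPM in HF libraries, and 0.631, 1.69 and 1.59 CPM in IFE, so that the 3 groups did not overlap. Its log2 fold change was 3.82 ± 0.38 for Touchdome over IFE (adjusted p = 0.00140, edgeR), -2.54 ± 0.31 for Touchdome over HF (adjusted p = 0.000270) and 6.36 ± 0.40 for HF over IFE (adjusted p = 2.05e-06), and these calls held in 17 of 17 alternatives. Touchdome replicate 3 was again the highest of its group. Panx1, a membrane channel that releases ATP, stood at 58.6 ± 7.93 CPM in Touchdome, 20.3 ± 4.12 CPM in HF and 67.5 ± 2.58 CPM in IFE and was lower in HF than in IFE by -1.74 ± 0.16 (adjusted p = 3.92e-06). Tmem63a, an osmosensitive channel, was lower in Touchdome than in HF by -0.79 ± 0.12 (adjusted p = 0.000328). Kcnk10, a relative of Kcnk2, had 10 counts in Touchdome, 279 in HF and 3 in IFE. It too was kept by the filter through its HF libraries, so its calls are not independent of the filter.

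**Figure D5:**
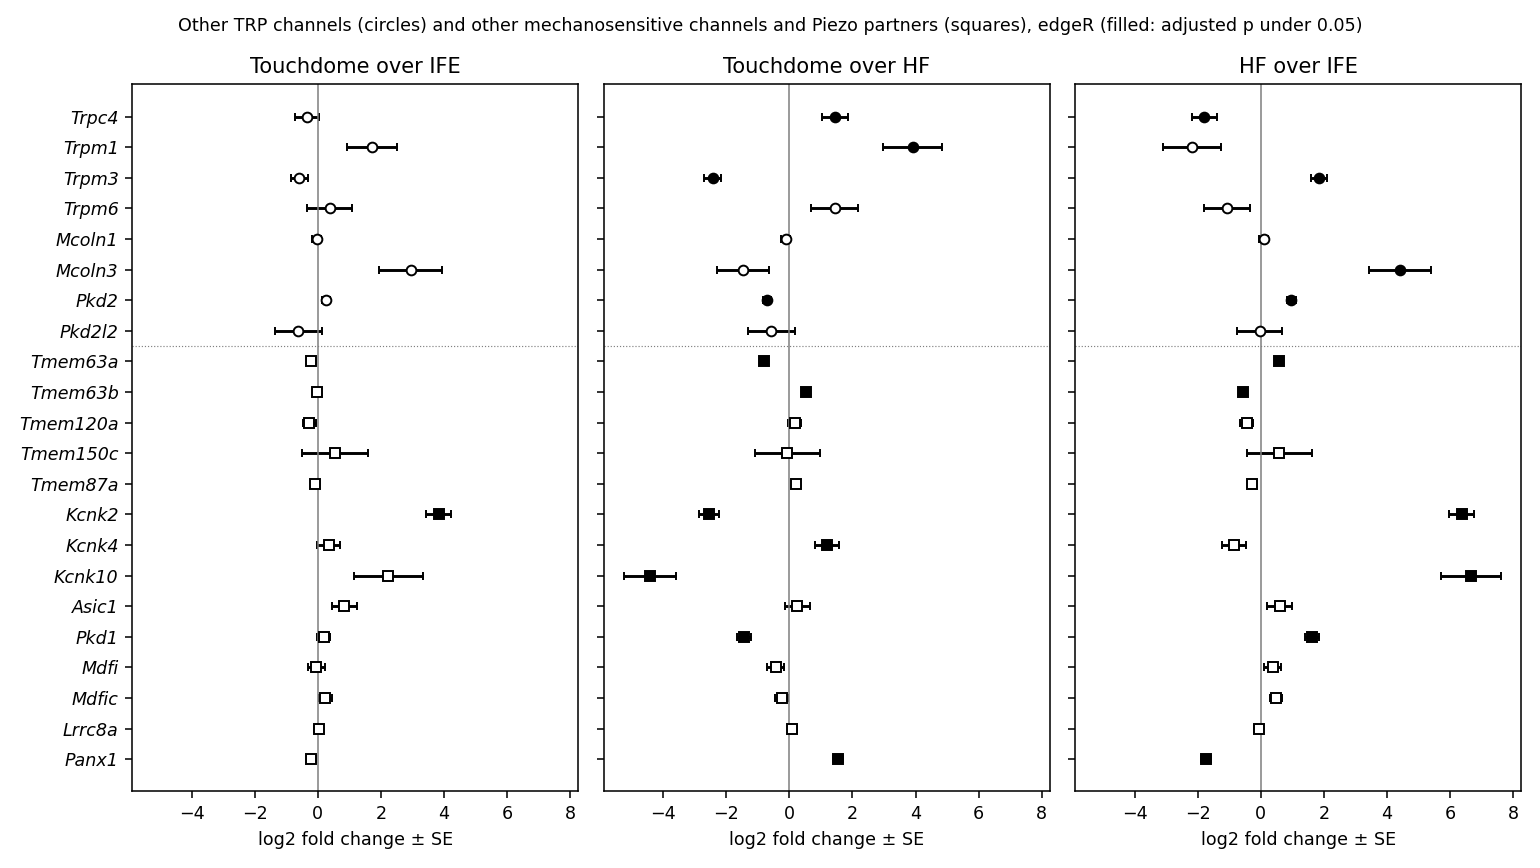
Log2 fold change ± SE from edgeR of 8 other TRP genes (circles) and 14 other mechanosensitive channels and Piezo partners (squares) for Touchdome over IFE, Touchdome over HF and HF over IFE; filled symbols passed an adjusted p under 0.05. Kcnk2 is the only filled symbol for Touchdome over IFE, at 3.82; the value of Kcnk10 against IFE rests on 3 IFE counts.

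Genes that act beside or below these channels were counted in 4 further lists. Of the store-operated calcium entry genes, in which STIM proteins of the endoplasmic reticulum open ORAI channels of the surface, 9 of the 10 listed were found and tested. For Touchdome over IFE, 0 were higher and 0 lower, for Touchdome over HF 1 was higher and 2 lower, and for HF over IFE 2 were higher and 1 lower, beside 1.22% and 0.0798%, 11.8% and 12.8%, and 17.1% and 16.0% of all tested genes. Medians were -0.10, -0.32 and 0.16 on the log2 scale. Counts under the alternatives ran from 0 to 1 higher for Touchdome over IFE, from 1 to 5 lower for Touchdome over HF, and from 1 to 3 higher and 1 to 2 lower for HF over IFE. Orai1 and Orai2 moved in opposite directions. Orai1 was lower in HF than in IFE by -1.70 ± 0.20 (adjusted p = 3.29e-05, edgeR), with 32.2 ± 3.01 CPM in Touchdome, 14.1 ± 2.56 CPM in HF and 45.9 ± 12.2 CPM in IFE. Orai2 was higher in HF than in IFE by 2.61 ± 0.29 (adjusted p = 4.81e-05), with 17.6 ± 6.57, 57.5 ± 12.2 and 9.34 ± 2.68 CPM in Touchdome, HF and IFE. Stim1 was lower in Touchdome than in HF by -0.32 ± 0.11 (adjusted p = 0.0496), a call that ended in 10 of 17 alternatives, including without any 1 Touchdome or HF library and without IFE replicate 1 or 3. Itpr3, an IP3 receptor, was higher in HF than in IFE by 0.58 ± 0.20 (adjusted p = 0.0434), a call that ended in 9 of 17, including without any 1 Touchdome or HF library and without IFE replicate 3.

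Of the 20 tested genes for calcium pumps, calmodulin and calcineurin-NFAT signalling, 0 were higher and 0 lower for Touchdome over IFE, 2 higher and 5 lower for Touchdome over HF, and 8 higher and 3 lower for HF over IFE, beside 1.22% and 0.0798%, 11.8% and 12.8%, and 17.1% and 16.0% of all tested genes. Medians were 0.02, -0.18 and 0.29 on the log2 scale. Under the alternatives the counts ran from 0 to 2 higher and 4 to 7 lower for Touchdome over HF, and from 6 to 10 higher and 0 to 4 lower for HF over IFE. Nfatc1, a calcium-regulated transcription factor of bulge stem cells that also stands in the follicle marker list, was lower in Touchdome (126 ± 38.4 CPM) than in HF (526 ± 20.8 CPM) by -2.06 ± 0.18 (adjusted p = 4e-06) and stood at 94.0 ± 3.12 CPM in IFE. Atp2b4, a surface calcium pump, and Calm2, a calmodulin gene, had the highest levels of the list and did not pass between Touchdome and IFE (log2 -0.11 and -0.17). Atp2a3, an endoplasmic reticulum calcium pump, was higher in HF than in IFE by 5.05 ± 0.59 (adjusted p = 0.000107), and Nfatc4 by 4.37 ± 0.68 (adjusted p = 0.000497).

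YAP and TAZ are transcription coactivators that respond to force, and of the 14 tested genes of their list 2 were higher and 0 lower for Touchdome over IFE, 2 higher and 8 lower for Touchdome over HF, and 5 higher and 4 lower for HF over IFE. The shares of all tested genes were 1.22% and 0.0798%, 11.8% and 12.8%, and 17.1% and 16.0%, and the medians of the list -0.05, -0.51 and 0.36 on the log2 scale. Across the alternatives, Touchdome over IFE gave 0 to 2 higher and 0 to 2 lower, Touchdome over HF 1 to 3 higher and 4 to 8 lower, and HF over IFE 5 to 7 higher and 2 to 4 lower. Ccn2, a YAP target encoding connective tissue growth factor, stood at 146, 193 and 486 CPM in Touchdome libraries, 2977, 2490.0 and 3463 CPM in HF libraries, and 28.8, 35.4 and 46.5 CPM in IFE, with Touchdome replicate 3 again highest in its group. It was higher in Touchdome than in IFE by 2.90 ± 0.46 (adjusted p = 0.0230), which ended in 7 of 17 alternatives, among them without HF replicates 1 or 3 or any 1 IFE library. Ccn1 of the same list went the other way for Touchdome over IFE (log2 -0.91) and did not pass (adjusted p = 0.162, edgeR). Tead2, a DNA-binding partner of YAP, was higher in Touchdome than in IFE by 2.39 ± 0.46 (adjusted p = 0.0213), which ended in 7 of 17, among them without Touchdome replicates 1 or 3 or IFE replicates 2 or 3. Amotl1, an angiomotin family gene, was lower in HF than in IFE by -1.378 ± 0.13 (adjusted p = 4.09e-06), and its relative Amotl2 was lower in Touchdome than in HF by -0.90 ± 0.13 (adjusted p = 0.000287).

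The list of keratinocyte signals to nerves had 12 tested genes, of which 0 were higher and 0 lower for Touchdome over IFE, 6 higher and 0 lower for Touchdome over HF, and 0 higher and 6 lower for HF over IFE, beside 1.22% and 0.0798%, 11.8% and 12.8%, and 17.1% and 16.0% of all tested genes. Medians of the list were -0.24, 1.49 and -1.01 on the log2 scale. The alternatives gave 0 to 2 higher for Touchdome over IFE, 4 to 7 higher and 0 to 1 lower for Touchdome over HF, and 0 to 1 higher and 4 to 6 lower for HF over IFE. Ptges, which makes prostaglandin E2, stood at 102, 107 and 74.0 CPM in Touchdome libraries, 13.9, 19.6 and 14.9 CPM in HF libraries, and 131, 123.5 and 116 CPM in IFE, and was higher in Touchdome than in HF by 2.56 ± 0.17 (adjusted p = 5.98e-07, edgeR). Il33, an alarm cytokine of barrier cells, was higher in Touchdome than in HF by 1.86 ± 0.23 (adjusted p = 0.000181), and Ptgs1, a cyclooxygenase gene, by 1.382 ± 0.21 (adjusted p = 0.000544). Ptges3, a cytosolic prostaglandin synthase gene, gave -0.01 for Touchdome over IFE (adjusted p = 0.993).

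For the called channel genes, the tested genes with the most similar pattern were found by Pearson's r of log2 CPM over the 9 libraries, as a description in which libraries of a group are not independent points. Nearest to Trpv4 were Jph4 (r = 0.998), Il11ra1 (r = 0.997) and Sorcs3 (r = 0.995). Sorcs3 averaged 0.992 CPM in Touchdome, 25.7 CPM in HF and 0.0505 CPM in IFE. Nearest to Trpv6 were Dcaf15 (r = 0.994), 1810037I17Rik and Mreg (r = 0.991 each), with Mreg at 80.7, 28.7 and 82.5 CPM in Touchdome, HF and IFE. Nearest to Trpm4 were Arhgap40 (r = 0.992), Fads6 (r = 0.983) and Lmx1b (r = 0.982), and nearest to Piezo1 were Tob2 (r = 0.986), Iffo2 (r = 0.983) and Pvr (r = 0.978). Piezo2, with its low counts, had the lowest values, 0.959 for Rogdi and Ankrd13d and 0.958 for Spire2.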

How the data were processed

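Poly(A) RNA of 9 libraries was analysed, 3 each of Touchdome, HF and IFE, grouped by their titles. The input was 50 ng of total RNA and the reads 150 nt in pairs, per the labels. The authors deposited 1 table of expected counts (estimated, with no scaling of library size) and TPM values (scaled to gene length and library). The submitters' processing notes name mm39 with RSEM 1.3.3, STAR 2.7.9a and DESeq2 1.38.2. What each tool did, the annotation release and the strand setting were not given in the sources used here. No mm39 annotation was used, so symbols came from the GENCODE table supplied (52081 of 55357 identifiers matched) and promoters from RefSeq build GRCm38.p6.

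Expected counts were rounded. Genes were kept by filterByExpr (minimum count 10, minimum total 15), which left 15046, and were scaled by TMM. The robust quasi-likelihood test of edgeR 4.0.16 (R 4.3.3) was fitted to all 9 libraries, with Benjamini-Hochberg adjustment over all tested genes and a threshold of 0.05. CPM values use the TMM-scaled library size. Limits for 0 counts rest on 3 counts. Intervals are at 95%, and those on counts cover counting error only. The edgeR test was checked on simulated counts.

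The 10 channel genes and all lists were chosen with earlier results of these data known. Named beside them are, per list and comparison, up to 3 called genes with the smallest p, or the 2 of highest level where none was called, and the 3 genes nearest in pattern to each called channel gene. Also given are Kcnk10 counts, Ccn1, Atoh1, Sox2, Isl1, Krt8, Krt18, Krt20, Cd34, Col1a1, Col1a2, Col3a1, Dcn, Lum and genes overlapping a channel gene. They were chosen after their values were seen or as markers. Alternatives were DESeq2 1.42.0, DESeq2 size factors in edgeR, no filter, a mean of 1 CPM as filter, only the 2 groups compared, the replicate number as a block, limma 3.58.1 on log2(TPM + 1) and log2(TPM + 0.1), and leaving out each of the 9 libraries, 17 in all. Replicate numbers in the titles pair Touchdome with IFE: deviations of same-numbered libraries from their group means correlated at 0.146 to 0.203 across genes, and others at -0.128 to -0.0406.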

Additional observations from a re-analysis of the deposited data

How the results depend on the processing

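For the 9 tested channel genes, 450 values were recomputed over the 17 alternatives (Piezo2 and Trpv2 had no value under some, which filtered them out): 405 kept their direction and side of the threshold, 7 calls ended (all Piezo1, Touchdome against HF), 10 values newly passed and 28 turned sign. None of the 28 belonged to a comparison that passed with all libraries in the edgeR fit. Trpv3 in HF over IFE, among those comparisons, passed without IFE replicate 2, but there its sign had not turned (-0.42). Of the 6 counts of called channel genes, 4 moved: those higher in Touchdome than in IFE were 2 with DESeq2, 1 without a filter and 0 to 1 with libraries left out, those lower in HF than in IFE were 1 to 2 with libraries left out, those lower in Touchdome than in HF were 2 to 3, and those higher in HF than in IFE were 3 to 4. With the replicate block, Touchdome against IFE kept 0 channel genes called. Same-numbered libraries did not pair in the other comparisons (r was -0.0257 to 0.0701 for Touchdome with HF, -0.00828 to 0.0592 for HF with IFE, and not every library was closest to its own number); there the block gave 0.85 for Piezo1 in HF over IFE (adjusted p = 0.00158) and 0.12 for Trpv2 in Touchdome over HF. Other alternatives in which Piezo1 passed in HF over IFE were DESeq2 (adjusted p = 0.00787) and the filter at a mean of 1 CPM (0.0493). Log2 values that turned sign with limma on log2(TPM + 1) were 0.16 for Piezo1, 0.10 for Trpv3 and 0.13 for Trpv6 in Touchdome over IFE and 0.017 for Trpc1 in HF over IFE. With log2(TPM + 0.1) they were 0.17, 0.11 and 0.14 for the same 3 genes in Touchdome over IFE, and 0.0027 for Trpv3 and 0.031 for Trpc1 in HF over IFE. With only the 2 groups in the fit they were 0.0061 for Trpv6 in Touchdome over IFE and 0.0079 for Trpv2 in Touchdome over HF. With libraries left out, Touchdome over IFE ranged from -0.52 to 0.055 for Piezo1, -0.22 to 0.074 for Trpv3, -0.10 to 0.070 for Trpv6 and -0.078 to 0.27 for Trpm7. Touchdome over HF ranged from -0.55 to 1.07 for Trpv2, -0.35 to 0.19 for Trpc1 and -0.076 to 0.073 for Trpm7, and HF over IFE from -0.26 to 1.36 for Trpv2 and -0.061 to 0.29 for Trpm7. The cause was not tested. Over all genes, Touchdome against IFE gave 184 higher and 12 lower, but DESeq2 gave 446 and 84, the fit of only the 2 groups 100 and 5, and 100 and 0 with limma on log2(TPM + 1), and HF against IFE gave 2401 lower but 1209 and 1219 with limma. Depth limits Trpv1, Trpv2 and Piezo2, whose counts in a library were at most 42.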

Other observations

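Counts per unit of TPM, which depend on the effective transcript length assigned to a gene in a library, varied for 2 of the 4 channel genes with at least 100 counts in every library. Relative to the gene's mean over libraries and to the median gene of the library, the ratio for Piezo1 was lowest in Touchdome replicate 2 (0.780) and highest in HF replicate 2 (1.48). For Trpm4 it was highest in Touchdome replicate 1 (1.34) and lowest in IFE replicate 2 (0.716). The highest over the lowest value was 1.90 for Piezo1 and 1.86 for Trpm4, exceeded by 5.49% and 6.16% of 8701 genes, beside 1.21 for Trpm7. Whether different isoforms were counted was not tested.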
